A study of Mus musculus with 48 samples.

Results

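Prox1, Dsp, Calb1, C1ql2, Lct, Trpc6, Rfx3, Plk5 and Tdo2 are 9 protein-coding genes that mark the granule cells of the mouse dentate gyrus. They were chosen by gene symbol, and all 9 were found among the 48709 Ensembl genes of the count tables. Their levels were followed in 46 male C57BL/6J mice of 8 groups, in which RNA from whole tissue was sequenced. Fmn2 encodes a formin, an actin-nucleating protein, and the study asked how its loss and an amyloid transgene change gene expression with age. The groups were 5 Fmn2+/+ (wild type) and 5 Fmn2-/- (knock out) mice at 3 months, 3 Fmn2+/+ and 5 Fmn2-/- mice at 8 months, 7 mice labelled FMN2-/-_APP and 9 labelled FMN2 +/+ APP at 3 months, and 6 APP and 6 wild type mice at 4 months. APP stands for an amyloid line in which the neuronal Thy1 promoter drives mutant human APP, and the Fmn2 knockout is constitutive. No label names a drug treatment. The reads assigned to genes numbered 6818809 in the shallowest library and 43921030 in the deepest.

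The libraries go against their labels in several respects. Fmn2 stood at 102.5 ± 7.35 CPM (read counts scaled to library size, SD, n = 5) in 3-month Fmn2+/+ mice and at 24.8 ± 2.39 (n = 5) in Fmn2-/- mice, and at 90.8 ± 15.2 (n = 3) and 24.3 ± 2.68 (n = 5) at 8 months. In the cross it was high, 83.3 to 101.8 CPM, in the mice labelled FMN2-/-_APP and low, 18.9 to 23.4 CPM, in those labelled FMN2 +/+ APP. These groups are therefore named by their labels throughout, with the Fmn2 level beside any direction. The 4-month libraries carry the tissue label dentate gyrus, but their sample names hold the letters PFC, and Dsp, C1ql2, Lct and Tdo2 were close to absent from them, as described below. Their names also mention 8mo beside 4, so that their age rests on the age label alone. Thy1, part of whose sequence the transgene cassette carries, was 1875 to 2411 CPM in the 4-month APP mice against 717 to 784 in the wild type, whereas the cross mice ranged from 782 to 1885, with the lowest within the 769 to 880 of the 3-month Fmn2-/- mice. App reads were 1324 to 1817 CPM in the mice labelled FMN2-/-_APP, close to the 1310 to 1817 of the 3-month mice without the transgene label, and 1397 to 2199 in those labelled FMN2 +/+ APP. Cst7, a microglial gene raised around plaques, stood at 30.04 to 41.2 CPM in the 4-month APP mice, but at 0 to 1.18 in 6 of the 7 mice labelled FMN2-/-_APP and 8.33 in the other, and at 0.0391 to 12.4 in those labelled FMN2 +/+ APP. The transgene label of the cross was therefore not borne out by these counts in every mouse. Ttr, made by the choroid plexus beside the hippocampus, exceeded 1000 CPM in 3 of the 46 mice, namely 3-month Fmn2-/- replicate 4 and the mice 4 and 5 labelled FMN2 +/+ APP. Counts of 8-month Fmn2-/- replicates 2 and 3 were closer to each other (chi-square per degree of freedom 1.62) than any other pair of that group (3.502 to 6.40), and closer than the repeat runs of 1 mouse elsewhere (1.72 and 2.15). The labels give them as separate mice and both were kept, but whether they share an animal or a dissection is not known, and n = 5 in that group rests on it.

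Granule cells are the principal neurons of the dentate gyrus. They receive cortical input through the perforant path and send mossy fibre axons to the hilus and to CA3. Prox1 is the homeobox transcription factor that specifies and maintains granule cell fate, and Rfx3 is a winged-helix factor of ciliary genes. C1ql2 is a C1q-like protein that mossy fibres secrete at their synapses, Dsp (desmoplakin) links intermediate filaments to desmosomes, and Calb1 (calbindin) buffers calcium in mature granule cells. Trpc6 is a cation channel of the canonical transient receptor potential family. Lct (lactase), Plk5 (a kinase-deficient polo-like protein) and Tdo2 (tryptophan 2,3-dioxygenase) are known mainly as enzymes or their relatives, and serve here as region markers.

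Start-site sequences are shown for the 2 genes that were lowest outside granule cell tissue, Dsp and C1ql2, and for the fate regulator Prox1. Each is the 250 bases before the RefSeq gene start on the GRCm38.p6 assembly, 5′ to 3′ on the gene's strand, with GGGCGG (the GC box, read on either strand and therefore also as CCGCCC) in capitals.
Prox1, chr1:190170828-190171077, minus strand: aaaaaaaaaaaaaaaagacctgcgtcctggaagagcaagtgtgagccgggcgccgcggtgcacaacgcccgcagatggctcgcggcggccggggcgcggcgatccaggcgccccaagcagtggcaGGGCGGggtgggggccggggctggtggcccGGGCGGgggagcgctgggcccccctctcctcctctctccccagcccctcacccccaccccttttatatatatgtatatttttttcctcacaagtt
Dsp, chr13:38151044-38151293, plus strand: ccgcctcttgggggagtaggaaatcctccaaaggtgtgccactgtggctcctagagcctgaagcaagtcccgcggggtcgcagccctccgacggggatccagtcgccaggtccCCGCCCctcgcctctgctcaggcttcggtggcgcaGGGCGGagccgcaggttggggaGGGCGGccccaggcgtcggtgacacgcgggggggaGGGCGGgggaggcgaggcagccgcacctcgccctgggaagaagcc
C1ql2, chr1:120340332-120340581, plus strand: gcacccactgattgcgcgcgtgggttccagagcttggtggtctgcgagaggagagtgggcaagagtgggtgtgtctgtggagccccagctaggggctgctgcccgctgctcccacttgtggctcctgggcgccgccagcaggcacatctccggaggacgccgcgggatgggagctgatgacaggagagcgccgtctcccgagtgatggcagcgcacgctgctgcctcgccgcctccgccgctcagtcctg

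A start-site window was found for 8 of the 9 genes. GC boxes numbered 4 before Dsp and Plk5, 3 before Rfx3, and 2 before the start of Prox1 shown, while C1ql2, Lct, Trpc6 and Tdo2 held none. Of all 32851 windows of the same length, 32.7% held a GC box. The letters CAGATG (or CATCTG), 1 form of the E-box read by neuronal bHLH factors, occurred once, before Prox1, against 14.4% of all windows, and CCGGAAG (or CTTCCGG), an ETS motif, once, before Rfx3, against 6.91%. The windows of Rfx3 and Dsp were richest in G and C (72.8% and 72.4%), C1ql2 reached 68.8%, and Lct was lowest at 42.8%, with a median of 52.4% over all windows. None of the motifs searched was common to all 8 genes.

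In the dentate gyrus of 3-month Fmn2+/+ mice, Calb1 was the most abundant of the 9 per length, at 60.6 ± 8.05 CPM per kb of exon (SD, n = 5). Prox1 followed at 27.4 ± 2.98. C1ql2 (17.6 ± 2.97), Rfx3 (16.8 ± 1.55) and Dsp (14.9 ± 2.00) lay within each other's spread, as did Plk5 (9.999 ± 1.06) and Lct (9.62 ± 1.84). Trpc6 (6.90 ± 0.784) and Tdo2 (5.06 ± 0.188) were lowest. Prox1 reads may include some from Prox1os, an antisense gene that overlaps its 5′ end, because the strand setting of the counting was not given in the sources used here.

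**Figure D1:**
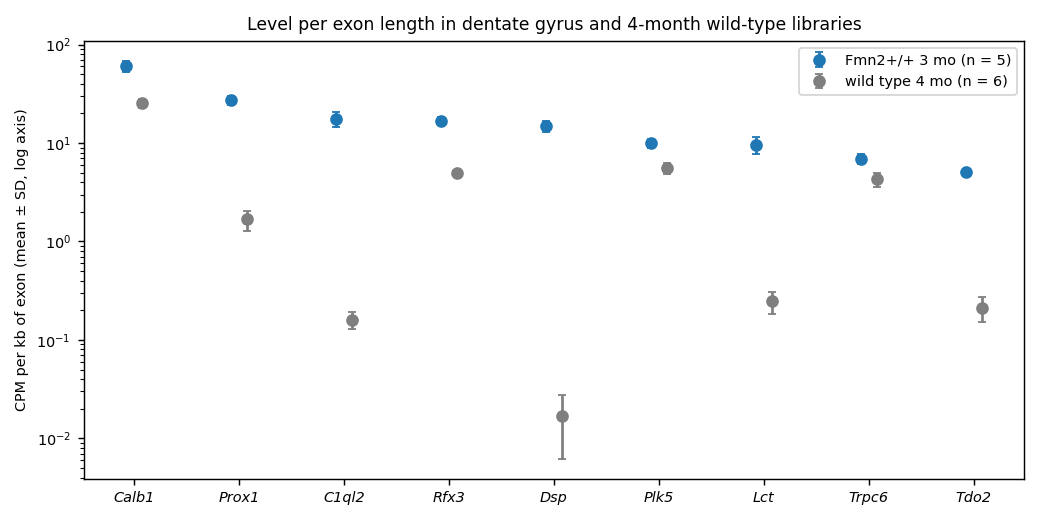
Mean CPM per kb of exon (log axis, bars SD) of each gene in 3-month Fmn2+/+ dentate gyrus (n = 5) and in the libraries labelled wild type at 4 months (n = 6). Calb1 kept 25.4 of 60.6 CPM per kb in the 4-month libraries, whereas Dsp went from 14.9 to 0.0170.

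Across the 34 dentate gyrus mice the summed level of the 9 genes ran from 867 to 1670 CPM, with a median of 1123. Mice tended to be high or low in several members at once. In the 3-month Fmn2+/+ group, replicate 1 was lowest for 7 of the 9 genes, at a summed 867 CPM, and in the 3-month Fmn2-/- group replicate 1 was highest for 8 of the 9, at 1317 CPM. Among the mice labelled FMN2-/-_APP, mouse 7 was lowest for 6 and mouse 5 highest for 5. Mouse 9 of those labelled FMN2 +/+ APP was lowest for 7, including Tdo2 at 4.62 CPM, yet highest in its group for C1ql2. Mouse 8 of that group was highest for Prox1, Lct, Trpc6 and Rfx3, and its 3 hilar mossy cell markers summed to 26.9 CPM against 161 to 257 in the other mice of the group. Markers of immature granule neurons summed to 105.7 and 109.8 CPM in mice 8 and 9, and to 50.05 to 62.6 CPM in the other 7. The part of dissection in these differences was not tested.

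With group means subtracted, the log2 level of each gene was correlated with the mean of the other 8 over the 34 dentate gyrus mice, which share libraries and scaling. Pearson's r was highest for Prox1 (0.82), Dsp (0.78), Trpc6 (0.72) and Rfx3 (0.71), intermediate for Plk5 (0.65), Calb1 (0.62) and Lct (0.59), and lowest for Tdo2 (0.42) and C1ql2 (0.26). Over these 34 mice C1ql2 thus had the lowest r of the members. Mouse 9 labelled FMN2 +/+ APP, lowest in its group for 7 members and highest for C1ql2, enters these values. The correlations were not repeated without it. Among 14746 genes compared with the members' mean in the same way, Sowaha (r = 0.90), Jph1 (0.87), Tiam1 (0.87), Btbd3 (0.86) and Gng7 (0.86) were most alike. Over all 46 mice, 4-month libraries included, the closest were F730043M19Rik, Vwa3b, Prox1os, Gpc4 and Sowaha, each at 0.99. Any gene that separates the 4-month from the dentate gyrus libraries tends to reach a high r in that set.

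All 9 genes were lower in the 4-month libraries than in any of the 34 dentate gyrus libraries, without overlap in any member. The share of all genes without such overlap was not counted, and 45.1% of genes were called in the wild type comparison below. The members' sum was 204 to 284 CPM there. Dsp was counted with 1 to 8 reads per library, C1ql2 with 4 to 18, Tdo2 with 8 to 38 and Lct with 20 to 45. Calb1, Rfx3, Trpc6 and Plk5, which other neurons also express, remained readily measured.

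**Figure D2:**
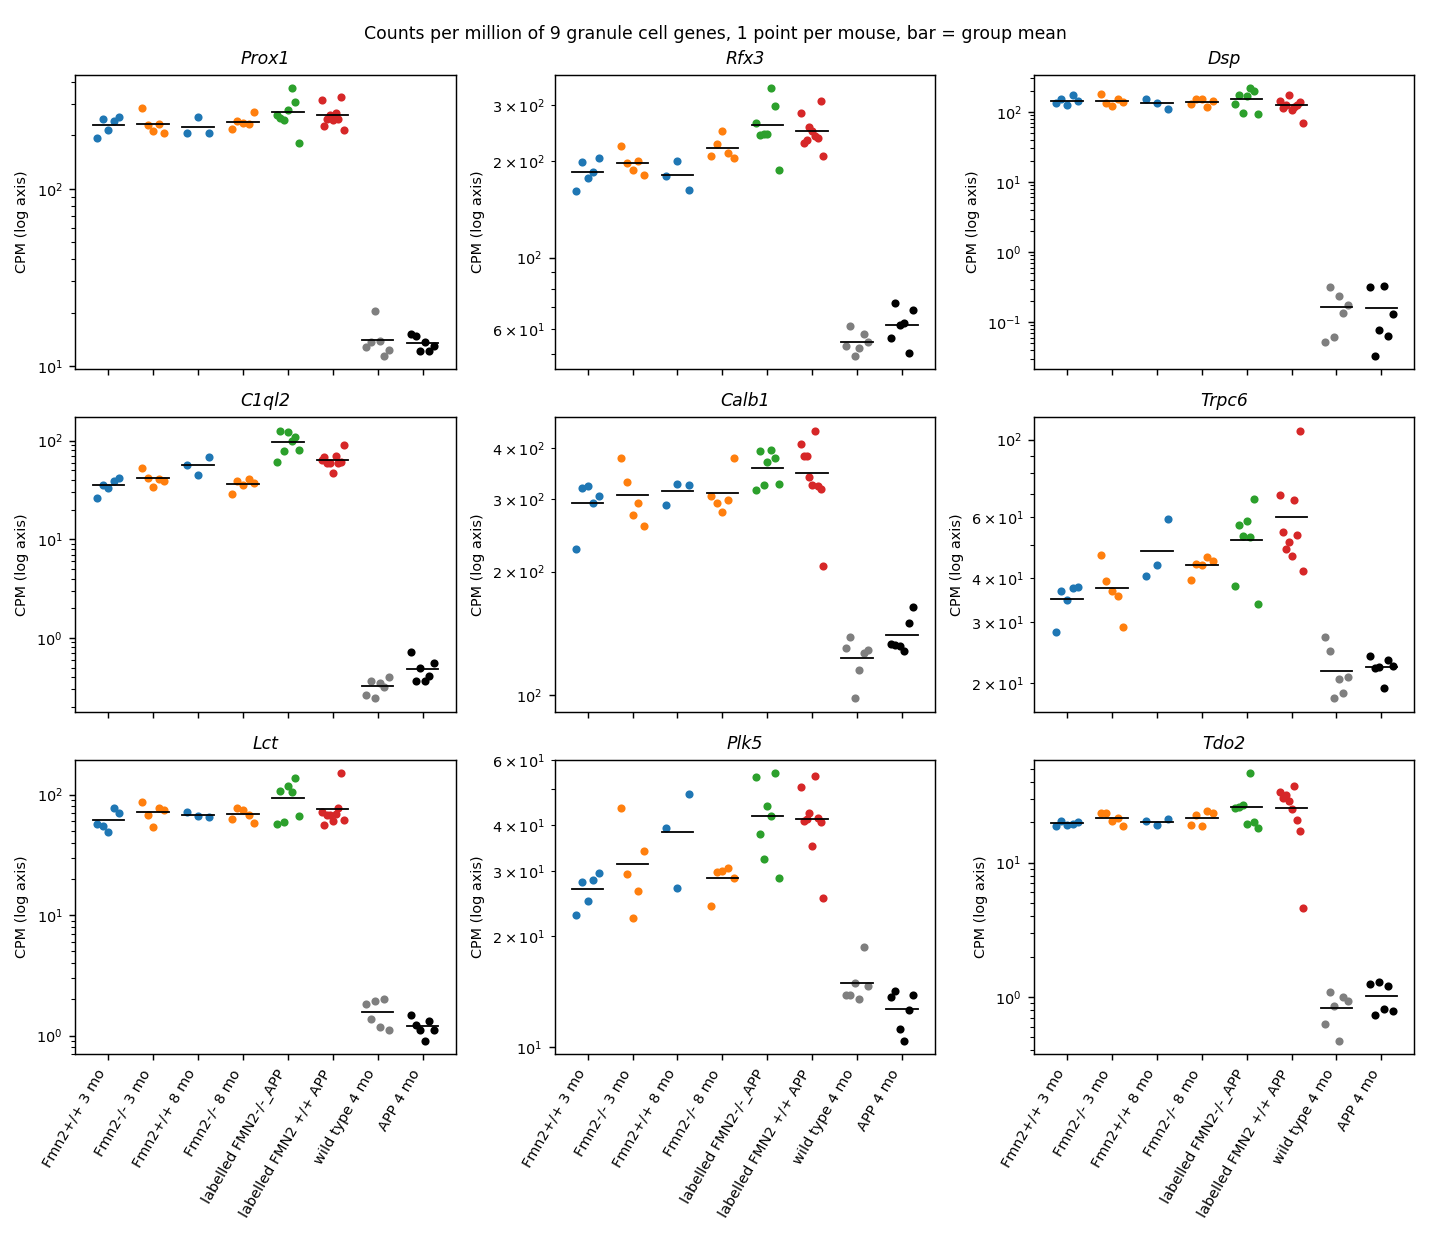
CPM (log axis) of the 9 genes in every mouse, in 8 groups, with a bar at each group mean. The 4-month groups on the right lie below all others in each panel, by the widest margin for Dsp, where they span 0.0332 to 0.327 CPM against 68.9 to 219.

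For Prox1, the 3-month Fmn2+/+ mice held 194, 248, 214, 240.5 and 253 CPM, and the 4-month wild type mice 11.4 at the lowest, 13.2 at the median and 20.4 at the highest. The groups were far apart, and Prox1 was 17.0-fold lower at 4 months (log2 fold change -4.09, SE 0.13, and an adjusted p of 2.06e-12 by the quasi-likelihood test of edgeR with Benjamini-Hochberg adjustment over all genes tested). For Dsp the corresponding values were 132, 149.7, 123, 174 and 143 CPM against 0.0521, 0.157 and 0.321, a log2 fold change of -9.72 (SE 0.17). For C1ql2 they were 26.3, 35.1, 33.4, 39.0 and 41.8 CPM against 0.243, 0.334 and 0.401, a log2 fold change of -6.77 (SE 0.16). Dsp and C1ql2 thus kept 0.119% and 0.913% of their dentate gyrus level. Lct kept 2.46% and Tdo2 4.19%. The remaining members kept more, with 28.6% for Rfx3, 40.4% for Calb1, 53.9% for Plk5 and 60.1% for Trpc6, whose log2 fold change was -0.73 (SE 0.10, adjusted p = 1.38e-05). All 9 passed the call (adjusted p under 0.05, with a log2 fold change of 0.5 or more in size), in a comparison that called 45.1% of all 16661 genes tested and 21.3% as lower. The members' median log2 fold change was -4.09, beside -0.01 over all genes.

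A similar order was seen when 4-month APP mice were set against the mice labelled FMN2-/-_APP, which share the transgene label and a high Fmn2 count. Again 9 of 9 were lower, where 43.5% of genes were called and 20.9% as lower, with Dsp at -10.002 (SE 0.37), C1ql2 at -7.67 (SE 0.23), Lct at -6.32 (SE 0.27) and Trpc6 at -1.25 (SE 0.14). Of 12 other granule cell and mossy fibre genes, 8 were lower and 1 higher in the wild type comparison (median -1.05). The vesicle protein gene Synpr fell by 1.20 on the log2 scale and Fam163b fell by 0.95, whereas Gabrd, a GABA-A receptor subunit, rose by 0.83. All 3 markers of hilar mossy cells were lower, with Calb2 at -3.21. Of 8 cortical layer genes 6 were higher, among them Tbr1 (1.16), where 3965 of all 16661 genes tested were called higher. The sum of the 8 was 513 to 585 CPM at 4 months against 157 to 303 in the dentate gyrus libraries. In bulk RNA, fewer cells of a type and less RNA per cell cannot be told apart, and the tissue, the age label and the experiment differ together between these libraries and cannot be told apart.

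At 3 months, none of the 9 genes was called between Fmn2-/- and Fmn2+/+ mice, and 0.0301% of 16630 genes passed the call of this comparison (adjusted p under 0.05, with a log2 fold change of 0.25 or more in size). All Fmn2+/+ mice were on lane 5, and all Fmn2-/- mice but replicate 1 were on lane 6. Genotype and lane were therefore separated by that mouse alone. None of the 9 reached an unadjusted p of 0.05, against 1750 of all genes, and DESeq2 also called none of the 9. Prox1 was 229.7 ± 25.01 CPM (SD, n = 5) in Fmn2+/+ and 233 ± 30.7 (n = 5) in Fmn2-/- mice, which differed by 0.02 on the log2 scale (SE 0.10). Dsp was 144 ± 19.3 and 145 ± 21.3 CPM (log2 fold change 0.00, SE 0.11). The widest difference was in C1ql2, at 26.3, 35.1, 33.4, 39.0 and 41.8 CPM in Fmn2+/+ and 53.2, 41.7, 34.2, 41.3 and 38.7 CPM in Fmn2-/- mice. These groups overlapped, with a log2 fold change of 0.25 (SE 0.13, adjusted p = 0.537). Lct (0.22, SE 0.14) and Plk5 (0.23, SE 0.16) were close behind, and the members' median was 0.09, beside 0.00 over all genes. Of the 12 other granule cell genes none passed.

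At 8 months C1ql2 was lower in Fmn2-/- mice, and it was the only member called, where 1.13% of 14665 genes were and 0.88% as lower. The 3 Fmn2+/+ mice held 57.1, 45.0 and 68.5 CPM, and the 5 Fmn2-/- mice 29.1, 38.8, 35.5, 40.5 and 37.2 CPM. The groups did not overlap, although the lowest Fmn2+/+ mouse lay within 5 CPM of the highest Fmn2-/- mouse. C1ql2 was 63.9% of its Fmn2+/+ level (log2 fold change -0.65, SE 0.13, adjusted p = 0.0434). Rfx3 was 179, 201 and 162 CPM in Fmn2+/+ and 207, 227, 248, 213 and 205 CPM in Fmn2-/- mice, again without overlap, but missed the threshold (log2 fold change 0.29, SE 0.09, adjusted p = 0.104). How many of all genes lacked overlap at 8 months was not counted. By edgeR 3 of the 9 members and 3419 of all 14665 genes tested had an unadjusted p under 0.05. Plk5 was 39.4, 26.96 and 48.7 CPM against 24.1, 29.9, 30.1, 30.7 and 28.8 CPM, with 1 Fmn2+/+ mouse inside the Fmn2-/- range (log2 fold change -0.42, SE 0.15, adjusted p = 0.129). Prox1 (0.11, SE 0.10), Dsp (0.08, SE 0.11), Calb1 (0.00, SE 0.10), Lct (0.02, SE 0.09), Trpc6 (-0.11, SE 0.11) and Tdo2 (0.11, SE 0.11) differed by about their SE or less. Over the 9 the median was 0.02, beside 0.01 over all genes. Of 12 other granule cell genes 1 passed, Grm2, a presynaptic glutamate receptor, at -0.57 (SE 0.10, adjusted p = 0.0378).

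**Figure D3:**
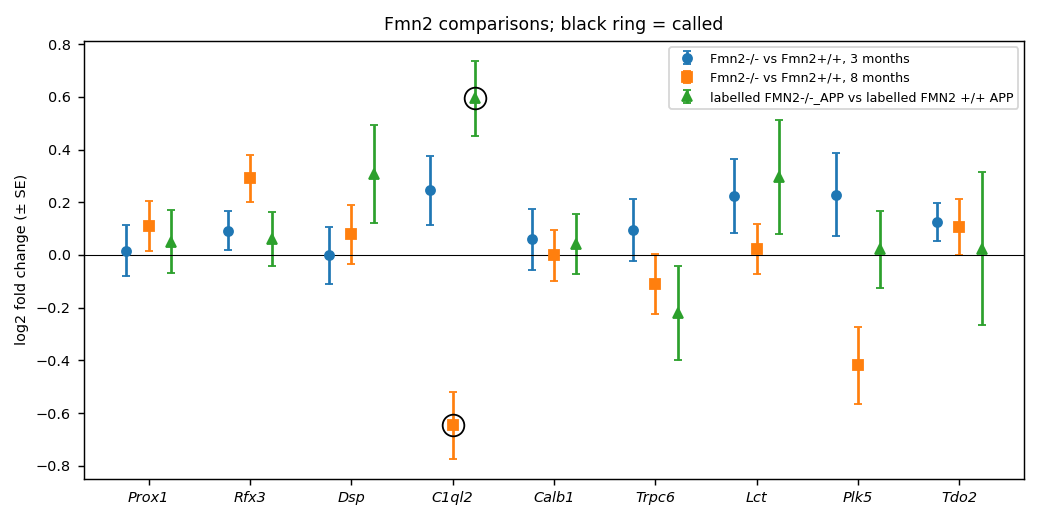
Log2 fold change (± SE) of the 9 genes between Fmn2-/- and Fmn2+/+ mice at 3 and 8 months, and between mice labelled FMN2-/-_APP and FMN2 +/+ APP. C1ql2 carries the called values (ringed), -0.65 at 8 months and 0.59 in the cross, where the label FMN2-/-_APP marks the mice with high Fmn2 counts (83.3 to 101.8 CPM), so that both values are higher on the Fmn2-high side, and Prox1 lies between 0.02 and 0.11 in these 3 comparisons.

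The 8-month call of C1ql2 rested on few libraries and moved with a joint correction for base composition and length. It was also lost with the close Fmn2-/- replicates 2 and 3 summed (adjusted p = 0.108). It was lost, too, on leaving out any of 7 of the 8 mice (log2 fold change -0.69 to -0.51, adjusted p between 0.0561 and 0.309), and held only without Fmn2+/+ replicate 2 (-0.77). Exons of C1ql2 hold 63.4% G and C, above 99.2% of 14723 expressed genes, and Plk5 stands at 61.4%. The 314 genes tested with at least the content of Plk5 had a median log2 fold change of -0.30 at 8 months, against 0.11 for the 185 genes as poor as Calb1 (36.8%). With a correction for GC content and length, C1ql2 stood at -0.28 (SE 0.10, adjusted p = 0.186), Plk5 at -0.12 and Rfx3 at 0.10. No Fmn2+/+ library had a depth within the range of the Fmn2-/- ones at 8 months, and lane as a covariate left -0.65 with an adjusted p of 0.319.

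The 3-month and 8-month libraries of each genotype share no lane (in Fmn2+/+ mice lane 5 against lanes 6 and 7, in Fmn2-/- mice lanes 5 and 6 against lane 7), so that age and lane cannot be told apart. Between 3 and 8 months, C1ql2 rose in Fmn2+/+ mice, from 35.1 ± 5.95 CPM (SD, n = 5) to 56.9 ± 11.8 (n = 3), without overlap (log2 fold change 0.71, SE 0.15, adjusted p = 0.0267). It was the only member called, and 5.98% of all genes were, 3.9% as higher. Trpc6 was 34.96 ± 3.97 CPM at 3 and 47.8 ± 9.998 at 8 months, also without overlap (0.45, SE 0.13, adjusted p = 0.0689), and Plk5 was 26.8 ± 2.84 and 38.4 ± 10.9 CPM (0.54, SE 0.15, adjusted p = 0.0622). Here too the share of all genes without overlap was not counted. By edgeR 3 of the 9 members and 4311 of all 16325 genes tested had an unadjusted p under 0.05. In Fmn2-/- mice no member was called, where 6.36% of genes were, with C1ql2 at -0.20 (SE 0.11, adjusted p = 0.332) and Trpc6 at 0.23 (SE 0.10, adjusted p = 0.204). DESeq2 also called none of the members there. By edgeR 2 of the 9 had an unadjusted p under 0.05, beside 3630 of all 15752 genes tested. Prox1, Dsp, Calb1 and Tdo2 lay between -0.12 and 0.10 on the log2 scale with age in both genotypes. The difference between the genotypes in the change with age was -0.91 for C1ql2 (SE 0.20, adjusted p = 0.0225), the only member called where 3.73% of genes were and 2.99% in this direction, and -0.66 for Plk5 (SE 0.24, adjusted p = 0.112). With the GC and length correction these became -0.42 (SE 0.19, adjusted p = 0.333) and -0.26, and the Fmn2+/+ change of C1ql2 became 0.44 (SE 0.14, adjusted p = 0.0796). The age call of C1ql2 was lost without any of the Fmn2+/+ replicates 1, 2 and 3 of 3 months or 1 and 3 of 8 months (adjusted p up to 0.0999). The call on the difference was lost without 8-month Fmn2+/+ replicate 1 or 3 or Fmn2-/- replicate 3 (adjusted p 0.105, 0.0988 and 0.0511).

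In the cross, C1ql2 was again the only member called, and it was higher in the mice labelled FMN2-/-_APP, the group with the high Fmn2 count. They ranged from 60.4 to 127 CPM with a median of 99.9, against 46.5 to 91.3 with a median of 60.2 in mice labelled FMN2 +/+ APP. The groups overlapped, with mice 1, 3 and 7 of the former below mouse 9 of the latter. The log2 fold change was 0.59 (SE 0.14, adjusted p = 0.0426), where 0.774% of 16656 genes passed and 0.438% as higher. Dsp was 92.5, 169 and 219 CPM (lowest, median and highest) against 68.9, 125 and 173 (0.31, SE 0.19, adjusted p = 0.433), and Lct 56.97, 105.9 and 137 against 55.4, 67.6 and 151 (0.29, SE 0.22, adjusted p = 0.532). Prox1, Calb1, Rfx3, Plk5 and Tdo2 lay between 0.02 and 0.06, although the SE of Tdo2 was 0.29, and Trpc6 was at -0.22 (SE 0.18, adjusted p = 0.579). The members' median was 0.05, beside 0.01 over all genes, and none of 12 other granule cell genes passed. Eomes, a marker of intermediate progenitors, rose by 1.23 (adjusted p = 0.0386) from means of 0.356 to 0.824 CPM. Leaving out any of 12 of the 16 mice ended the call of C1ql2, with 0.52 to 0.60 and adjusted p between 0.0581 and 0.0860. Without the mice rich in Ttr it was 0.52 (adjusted p = 0.134), without mice 8 and 9 of the FMN2 +/+ APP label it was 0.67 (adjusted p = 0.0253), and with the GC and length correction 0.52 (adjusted p = 0.0865). Thy1 stood at 1153 ± 346 CPM (SD, n = 7) with the label FMN2-/-_APP. With the label FMN2 +/+ APP it was 1329 ± 318 CPM (n = 9). As described above, the transgene label was not borne out in every mouse. The part of the transgene in the C1ql2 difference was not tested.

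Relative to Fmn2 level, C1ql2 was thus higher in the Fmn2-high group at 8 months and in the cross, and lower, without passing the test, in the Fmn2-high group at 3 months. In the cross, transgene counts also varied between mice, and their part was not tested. Whether the cross differed from the 3-month mice in this contrast was tested in a fit over the 4 groups. The difference was 0.85 for C1ql2 (SE 0.22, adjusted p = 0.0877), no member passed where 0.267% of genes did, and DESeq2 gave an adjusted p of 0.0250 for C1ql2. Lct followed at 0.53 (SE 0.31, adjusted p = 0.483).

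Some members were also higher in the cross groups than in 3-month mice with the like Fmn2 count, namely 4 of 9 in 1 pair and 2 of 9 in the other. The transgene label and the experiment differ together in both pairs and cannot be told apart. Against 3-month Fmn2+/+ mice, those labelled FMN2-/-_APP were higher in C1ql2 at 1.47 (SE 0.18, adjusted p = 4.47e-05), 2.76-fold and without overlap. How many of all genes lacked overlap was not counted in this pair either. Plk5 ranged from 28.8 to 55.3 CPM with a median of 42.4, against 22.8, 28.1, 24.9, 28.3 and 29.7 CPM, overlapping through mouse 7 (0.66, SE 0.15, adjusted p = 0.0036). Trpc6 ranged from 33.7 to 67.4 CPM with a median of 52.9, against 28.2, 36.7, 34.7, 37.5 and 37.7 CPM, likewise overlapping through mouse 7 (0.56, SE 0.15, adjusted p = 0.00978). Lct was at 0.60 (SE 0.22, adjusted p = 0.0457). These 4 of 9 were called, where 16.9% of 16592 genes were and 9.44% as higher, and the members' median was 0.49, beside 0.03 over all genes. Rfx3 (0.49, adjusted p = 0.00482) and Calb1 (0.29, adjusted p = 0.0234) passed on p but not on size, and Dsp (0.09, SE 0.20) and Prox1 (0.24, SE 0.14) did neither. The call of Lct was lost on leaving out any of 8 of the 12 mice (adjusted p up to 0.114), namely Fmn2+/+ replicates 1, 2, 3 and 5 and labelled mice 2, 4, 5 and 6, and that of Trpc6 without Fmn2+/+ replicate 1 or labelled mouse 6 (0.50 and 0.49). With the GC and length correction C1ql2 was 1.28 and Trpc6 0.62, Rfx3 (0.72) and Tdo2 (0.52) were called too, and Plk5 (0.48) and Lct (0.55, adjusted p = 0.067) no longer were.

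Against 3-month Fmn2-/- mice, 2 of 9 were higher in the mice labelled FMN2 +/+ APP, where 10.9% of 17020 genes were called and 6.03% as higher. C1ql2 was at 0.62 (SE 0.13, adjusted p = 0.00238), with 46.5 to 91.3 CPM against 34.2 to 53.2. Trpc6 was at 0.68 (SE 0.19, adjusted p = 0.0137), with 42.1 to 106.2 CPM and a median of 53.2, against 46.7, 39.4, 36.9, 35.6 and 28.99 CPM. In both genes the groups overlapped through Fmn2-/- replicate 1. Rfx3 (0.33, adjusted p = 0.00767) passed on p alone. Prox1 (0.17, SE 0.10), Lct (0.07, SE 0.20) and Dsp (-0.22, SE 0.15) did not pass, and the members' median was 0.26, beside 0.02. Among 12 other granule cell genes, C1ql3, the mossy fibre partner of C1ql2, and Synpr were called higher in both cross comparisons, C1ql3 at 1.002 and 0.84 and Synpr at 0.73 and 0.73. Other cell types moved as well. Of 5 immature granule neuron genes 4 rose in the first comparison (median 1.03) and 1 in the second, 3 of 8 cortical layer genes fell in each, and all 5 oligodendrocyte genes fell in the second (median -0.87). Of all genes tested, 1240 of 16592 were called lower in the first comparison and 830 of 17020 in the second. The part of tissue composition in the members' values was not tested.

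**Figure D4:**
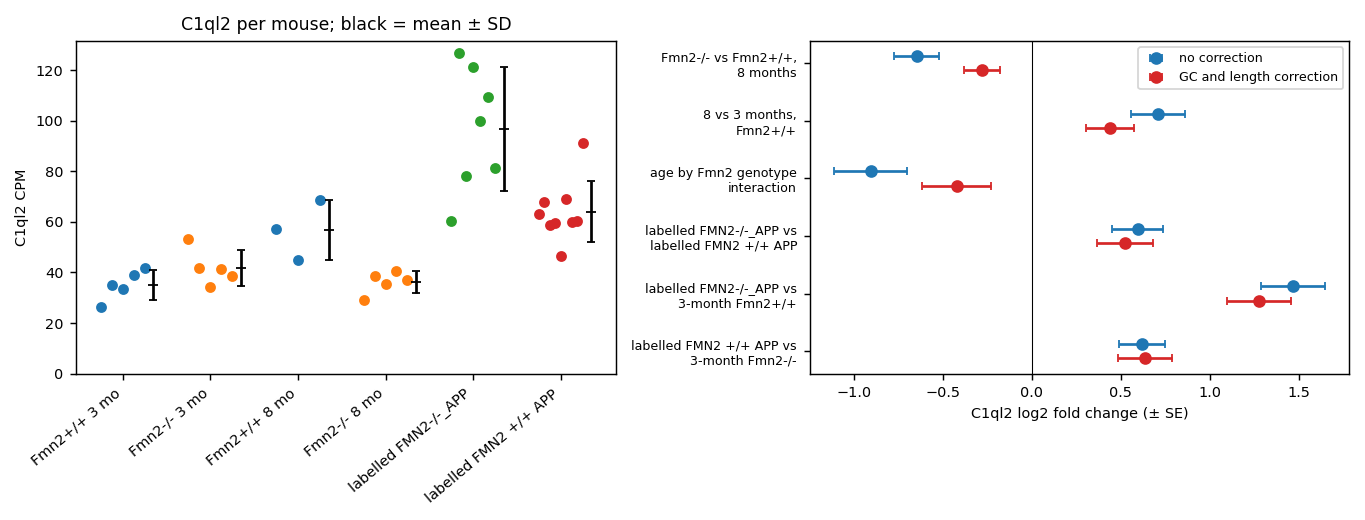
Left, C1ql2 CPM of each mouse in the 6 dentate gyrus groups with mean ± SD, where the mice labelled FMN2-/-_APP span 60.4 to 127 and the 8-month Fmn2-/- mice 29.1 to 40.5. Right, its log2 fold change (± SE) in 6 comparisons without and with the GC and length correction, which takes the 8-month genotype value from -0.65 to -0.28 and leaves the FMN2-/-_APP value against 3-month Fmn2+/+ at 1.28.

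At 4 months, APP and wild type mice differed in none of the 7 members tested, where 2.34% of 16733 genes were called. By DESeq2 the count was also 0. By edgeR 3 of the 7 had an unadjusted p under 0.05, beside 2396 of all 16733 genes tested. Dsp and C1ql2 fell below the count filter, with at most 8 and 18 reads in any library. Prox1 was 12.2 to 15.2 CPM (median 13.3) in APP and 11.4 to 20.4 (median 13.2) in wild type mice, a log2 fold change of -0.05 (SE 0.12). Calb1 stood at 0.20 (SE 0.07, adjusted p = 0.187), Rfx3 at 0.18 (SE 0.07, adjusted p = 0.227), Plk5 at -0.23 (SE 0.09, adjusted p = 0.258) and Lct at -0.38 (SE 0.19, adjusted p = 0.36), and all groups overlapped. All 6 genes of the amyloid check, which include App and Thy1, were higher in the same comparison. All APP mice were sequenced on lane 7 and all wild type mice on lane 5.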

How the data were processed

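RNA was extracted with TRIZOL from whole tissue and libraries were made with the TruSeq v2 kit. The authors aligned reads to mm10 with STAR and deposited raw read counts per Ensembl gene made with HTSeq. The strand setting and annotation release were not given in the sources used here. Each of the 48 runs had its own table, and the repeat runs of mouse 7 in each cross group were summed, giving 46 mice. Symbols, exon lengths and GC content came from GENCODE M21 for 48349 of 48709 genes, and start-site sequences from RefSeq. CPM was calculated with TMM scaling over all mice, which normalizes library size but not base composition. Each comparison was fitted on its own mice with edgeR 4.0.16 (quasi-likelihood test, TMM, filterByExpr) in R 4.3.3, with Benjamini-Hochberg adjustment over all genes tested. Calls needed an adjusted p under 0.05 and a log2 fold change whose size was at least 0.25 (Fmn2 and age comparisons, and the difference between cross and 3-month mice) or 0.5 (amyloid and tissue comparisons). SE is the model's. The correlations used log2(CPM + 0.5). The labels do not say from how many litters or dissections the mice came, so that p-values measure the spread between these samples.

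Alternatives were DESeq2 1.42.0, no filter on low counts, correction for GC content and length, leaving out each mouse, a replicate block, lane as a covariate, thinned counts and, chosen after seeing the data, leaving out mice rich in Ttr or mice 8 and 9 labelled FMN2 +/+ APP, and the test of the cross against the 3-month mice. The scripts were tested on simulated data. The 9 genes and the marker lists were chosen with earlier results of these data known. Genes named beyond them are members of these lists, or were the 5 genes most like the members' mean.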

Additional observations from a re-analysis of the deposited data

Results flagged for a closer look

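Values that lay far from the rest of their group by Dixon's test were found in 8 of 63 groups examined, and chance alone gives about 1 in 20. The genes were measured in the same mice, so that these tests are not independent, and a surplus over that share was not tested. In mice labelled FMN2 +/+ APP, mouse 8 was high for Lct (150.5 CPM) and Trpc6 (106.2 CPM), and mouse 9 was high for C1ql2 (91.3 CPM). Mouse 5 labelled FMN2-/-_APP was high for Tdo2 (46.4 CPM). Among 8-month Fmn2-/- mice, replicate 5 was high for Calb1 (377 CPM) and replicate 1 was low for Plk5 (24.1 CPM). Among 4-month wild type libraries, replicate 3 was high for Prox1 (20.4 CPM) and replicate 5 for Plk5 (18.7 CPM).

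The change of C1ql2 with age differed between genotypes in the test of the difference itself, at -0.91 on the log2 scale, with a rise in Fmn2+/+ mice (0.71) and -0.20 in Fmn2-/- mice. With the GC and length correction it was -0.42 (adjusted p = 0.333 by edgeR), and the call was also lost without 8-month Fmn2+/+ replicate 1 or 3 or Fmn2-/- replicate 3.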

How the results depend on the processing

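No setting reversed a call. Over 2072 combinations of a gene, a comparison and a setting, 1994 kept their side of the threshold (a change of sign in a gene not called was not counted), 51 lost a call and 27 gained one. The 1994 include genes called under no setting. At 8 months the C1ql2 call was kept in 4 settings and lost in 12, and in the cross kept in 9 and lost in 15. For age in Fmn2+/+ mice it was kept in 8 and lost in 6, and for the difference in age change kept in 20 and lost in 5. Its calls in the cross groups against 3-month mice were kept throughout. All 9 members stayed lower in both 4-month comparisons under every setting, and none was called at 3 months between the Fmn2 genotypes or at 4 months between APP and wild type mice under any setting run.

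The number of members called at 8 months between Fmn2 genotypes, 1 by edgeR, was 2 with DESeq2 and 2 with no filter on low counts. It was 0 with the GC and length correction, 0 with lane as a covariate, 0 with Fmn2-/- replicates 2 and 3 summed, where C1ql2 had an adjusted p of 0.108 by edgeR, 0 with counts thinned to the smallest library (adjusted p = 0.0642), and 0 to 3 on leaving out each mouse. The difference between genotypes in the change with age, 1 member, gave 0 with the GC and length correction, 0 when thinned and 0 to 2 on leaving out each mouse. In the cross, 1 member became 0 with the GC and length correction, 0 with lane as a covariate (adjusted p = 0.0542), 0 without the Ttr-rich mice and 0 to 1 on leaving out each mouse. For age in Fmn2+/+ mice, 1 became 3 with DESeq2, 3 with no filter, 0 with the GC and length correction and 0 to 3 on leaving out each mouse, and in Fmn2-/- mice 0 became 0 to 1. Against 3-month Fmn2+/+ mice, the 4 members higher in mice labelled FMN2-/-_APP became 2 to 5 on leaving out each mouse, and the 2 against Fmn2-/- mice became 2 to 3. The test of the cross against the 3-month mice, 0 by edgeR, gave 1 with DESeq2, 1 without mice 8 and 9 labelled FMN2 +/+ APP (adjusted p = 0.0472) and 0 to 1 on leaving out each mouse.

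Same-numbered replicates did not deviate together in every pair. Pair correlations ran from -0.23 to 0.31 at 3 months (4 pairs), from -0.08 to -0.03 at 8 months (3 pairs) and from -0.37 to 0.36 in the cross (7 pairs). In the cross their mean was 0.11, against -0.01 for mice of unlike number. So few pairs cannot settle whether same-numbered mice share more than a number. With the replicate number as a block, members called went from 1 to 0 at 8 months (C1ql2 -0.73, adjusted p = 0.326), from 4 to 5 against 3-month Fmn2+/+ mice and from 2 to 4 against 3-month Fmn2-/- mice. The block left 1 in the cross (C1ql2 0.64, adjusted p = 0.0453), 1 for age in Fmn2+/+ mice (0.86, adjusted p = 0.0488) and 0 in Fmn2-/- mice. Genes called over the whole table went with it from 166 to 4 at 8 months and from 977 to 225 for age in Fmn2+/+ mice.

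The background of called genes itself depended on the setting. At 3 months 5 genes became 96 with DESeq2 and 14 without the filter on low counts. At 8 months 166 became 672 with DESeq2, 1124 without the filter, 24 with the GC and length correction, 35 when thinned, 5 with the close pair summed, 3 with lane as a covariate and 3087 without Fmn2+/+ replicate 2. The difference in age change went from 635 to 1398 with DESeq2, 399 without the filter, 50 with the GC and length correction and 8 without 8-month Fmn2+/+ replicate 1. The cross went from 129 to 356 with DESeq2 and 56 without the Ttr-rich mice, age in Fmn2+/+ mice from 977 to 1714 with DESeq2, and age in Fmn2-/- mice from 1002 to 421 with the GC and length correction. In the 5 amyloid and tissue comparisons outside the cross, no setting moved the number by over 1.5 times.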

Other observations

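C1ql3 acts with C1ql2 at mossy fibre synapses. With age in Fmn2-/- mice C1ql3 was called higher, whereas C1ql2 was not called (log2 fold change -0.20, SE 0.11, adjusted p = 0.332 by edgeR). Between 3 and 8 months C1ql3 rose there from 94.4, 90.1, 82.4, 83.2 and 74.5 CPM to 108, 119.6, 118, 127 and 139 CPM, without overlap (log2 fold change 0.53, SE 0.08, adjusted p = 0.00221). The vesicle protein gene Synpr rose in the same comparison (0.37, SE 0.08, adjusted p = 0.0103), the other of 2 called among 12 granule cell and mossy fibre genes outside the 9. Of all 15752 genes tested 6.36% were called, and the share without overlap was not counted. Age and lane cannot be told apart in this comparison. The 337 genes with at least the GC content of Plk5 had a median log2 fold change of -0.24 in it, against 0.14 for the 211 genes as poor as Calb1. C1ql3 remained readily measured in the 4-month libraries, with 60.3 to 107.2 CPM against 65.96 to 193 in the dentate gyrus, whereas C1ql2 was at 0.243 to 0.723 CPM in the 4-month libraries.

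Vwa3b and Prox1os, whose levels over all mice were among the closest to the members' mean, spanned 17.9 to 45.0 CPM and 7.45 to 18.5 CPM in the dentate gyrus and 1.11 to 2.17 CPM and 0.479 to 0.996 CPM in the 4-month libraries. Sowaha, the closest within the dentate gyrus, spanned 127 to 262 CPM and 42.5 to 66.2 CPM.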
